A study of Mus musculus with 10 samples.

Results

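Type I interferon-stimulated antiviral genes were examined in tumors that the mouse lung cancer line KPN1.1 formed in obese mice, 5 treated with liraglutide and 5 with vehicle. The 47 members were taken from a list of antiviral effectors, nucleic acid sensors and their regulators, by gene symbol. The rule itself uses no measured values, but the list was drawn up with earlier results of these data known. All 47 were found among the 55401 genes of the counts table, and all 47 were among the 17464 genes that passed the filter on low counts. KPN1.1 is labelled lung adenocarcinoma and carries deletion of Trp53 and the NINJA neoantigen allele, so every tumor in both groups grew from the same line. The hosts were male C57BL/6J mice made obese with a high-fat diet, which were 7 to 17 weeks old when 75000 cells were placed under the skin of the flank. Once a tumor could be felt, liraglutide, an agonist of the GLP-1 receptor, was given into the peritoneum each day at 0.2 μg per g of body weight, and control mice received PBS. Tumors were collected between days 19 and 22. RNA came from 1 frozen fragment per tumor, which held tumor cells together with host cells, and the tumors grew outside the lung.

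Type I interferons are secreted when cells sense viral or misplaced self nucleic acid, through RNA sensors such as RIG-I and MDA5 or the DNA sensor cGAS, which signals through STING. These cytokines bind the IFNAR receptor, whose kinases activate STAT2 and its partners, and the complex with IRF9 binds interferon-stimulated response elements (ISREs) in the promoters of target genes. The products of those genes block viral translation, degrade RNA or trap virus particles, and in tumors the same genes are known to be expressed by malignant cells, macrophages and dendritic cells. IRF7 is itself induced and drives further interferon production. Many members also respond to interferon-gamma.

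The promoters show the sequence feature that these genes are known for. A RefSeq window from 250 bases before to 50 bases after the transcription start (GRCm38.p6) was found for 34 of the 47 members. The ISRE core, searched as GAAANNGAAA on both strands, was present in 18 of the 34 (52.9%), against 3.99% of the 27025 genes with a window. The following are the 160 bases before the start, 5′ to 3′ on the gene's strand, with matches of the core in capitals, which read TTTCNNTTTC where the match lies on the opposite strand. The first 6 were picked by name from the members with a match in these bases, to cover several roles, and other members hold matches closer to the start. Matches that overlap appear as 1 run of capitals.
Isg15: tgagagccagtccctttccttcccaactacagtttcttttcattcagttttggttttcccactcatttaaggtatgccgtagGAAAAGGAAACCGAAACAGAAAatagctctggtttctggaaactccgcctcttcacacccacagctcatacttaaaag
Ifit1: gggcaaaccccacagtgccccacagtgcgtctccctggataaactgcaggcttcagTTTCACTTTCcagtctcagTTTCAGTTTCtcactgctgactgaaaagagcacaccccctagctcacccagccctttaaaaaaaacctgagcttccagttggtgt
Ifit3: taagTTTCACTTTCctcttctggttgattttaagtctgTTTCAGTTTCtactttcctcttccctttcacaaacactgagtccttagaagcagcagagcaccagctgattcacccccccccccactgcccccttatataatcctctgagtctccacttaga
Oas3: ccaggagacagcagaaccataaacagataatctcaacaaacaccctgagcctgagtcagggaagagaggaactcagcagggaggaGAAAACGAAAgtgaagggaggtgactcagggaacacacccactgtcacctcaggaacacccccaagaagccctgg
Rsad2: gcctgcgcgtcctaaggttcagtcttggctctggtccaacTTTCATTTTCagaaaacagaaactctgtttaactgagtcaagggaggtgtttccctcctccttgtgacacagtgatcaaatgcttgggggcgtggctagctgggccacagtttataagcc
Bst2: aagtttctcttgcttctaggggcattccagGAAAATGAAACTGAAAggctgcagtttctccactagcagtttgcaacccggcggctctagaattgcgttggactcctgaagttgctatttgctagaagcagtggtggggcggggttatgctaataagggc

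These lie at chr4:156200819-156200978 (minus strand) for Isg15, chr19:34640729-34640888 (plus) for Ifit1, chr19:34583369-34583528 (plus) for Ifit3, chr5:120777660-120777819 (minus) for Oas3, chr12:26456453-26456612 (minus) for Rsad2 and chr8:71537473-71537632 (minus) for Bst2. The Isg15 run holds 3 overlapping matches, the Bst2 run holds 2, and Ifit1 and Ifit3 each hold 2 separate ones. Irf7 (chr7:141266425-141266584, minus strand) and Cgas (chr9:78443238-78443397, minus strand) are shown as members without these letters in the window.
Irf7: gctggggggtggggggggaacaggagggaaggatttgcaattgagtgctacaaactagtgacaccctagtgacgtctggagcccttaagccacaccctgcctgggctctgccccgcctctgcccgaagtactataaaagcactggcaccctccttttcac
Cgas: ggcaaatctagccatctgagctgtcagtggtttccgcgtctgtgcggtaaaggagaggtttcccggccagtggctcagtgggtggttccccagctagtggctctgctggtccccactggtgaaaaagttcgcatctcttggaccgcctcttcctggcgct

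Total counts ranged from 9927942 to 14480593 per tumor, and the 47 members together took between 0.0943% and 0.285% of the counts of a tumor. Levels are given as CPM, the count of a gene over the library size scaled for composition, in which 3 counts, the smallest level treated as detectable, corresponded to 0.207 to 0.315 CPM. Epithelial keratins were abundant, with Krt8 at 2435 and 2030 CPM and Krt18 at 1615 and 1374 CPM in vehicle and liraglutide tumors (means, n = 5 each), and the lung lineage factor Nkx2-1 stood at 46.3 and 91.8 CPM. Of the surfactant genes of alveolar type II cells, Sftpb stood at 274 and 256 CPM and Sftpc at 1.15 and 2.84 CPM. Of the epithelial adhesion genes, Cdh1 stood at 1129 and 1559 CPM and Epcam at 2.46 and 3.00 CPM.

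The comparison of liraglutide with vehicle asks whether treatment of obese mice changed gene expression in the tumor. Most members had a higher fitted level with liraglutide, but none of the differences passed the test. With edgeR's quasi-likelihood test, 0 of 17464 genes (0%) had an adjusted p under 0.05 with an absolute log2 fold change over 0.58, and so 0 of the 47 members were called. DESeq2 called 25 genes and 0 members, but its independent filtering left an adjusted p for only 11 of the 47 members. Without that filtering, an alternative added after seeing the data, all 47 had an adjusted p, and DESeq2 called 21 genes and 0 members, with the smallest adjusted p among the members, 0.0863, for Sting1. At an unadjusted p under 0.05, 2 members were higher with liraglutide (Sting1 and Ifitm3), where 3.97% of all genes were, and 1 was lower (Isg20), where 5.62% of all genes were. The count of 3 members (6.38%, against 9.59% of all genes in either direction) depended on single tumors. It was 7 without vehicle tumor 4, or 14.9% against 15.2% of all genes in that fit, and 11 without vehicle tumor 5, or 23.4% against 13.5%. With the level of the leukocyte gene Ptprc added to the fit it was 10, or 21.3% against 11.2%. The log2 fold change was positive in 35 members (74.5%) and in 47.4% of all genes tested. Its median over the members was 0.28, against -0.02 over all genes, and single members ran from -0.48 to 0.97. That median also rested on single tumors, at 0.09, 0.11 and 0.15 without vehicle tumor 1, vehicle tumor 2 or liraglutide tumor 5, and 0.43 and 0.63 without vehicle tumor 4 or 5. With all tumors kept it was 0.53 with limma-voom and 0.16 with Ptprc in the fit. The 95% interval spanned 0 in 44 members, with a median half-width of 0.93 on the log2 scale.

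In no member did the groups separate: 0 of 47 had every liraglutide tumor above every vehicle tumor, and 0 had every one below, where 0.607% and 0.888% of all genes did. In 30 members all 5 liraglutide values lay inside the range of the vehicle values. The share of all genes with this order was not computed, so the count cannot be read as particular to the members. A gap opened for a single member when 1 tumor was left out. It was Ifitm3 without vehicle tumor 2, Isg20 without vehicle tumor 4, and Sting1 without vehicle tumor 5 or without liraglutide tumor 1. In bulk RNA, fewer cells that express a gene and less RNA per cell cannot be told apart. Each tumor was a separate sample, and the p-values set the difference between groups against the spread between these tumors.

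**Figure D1:**
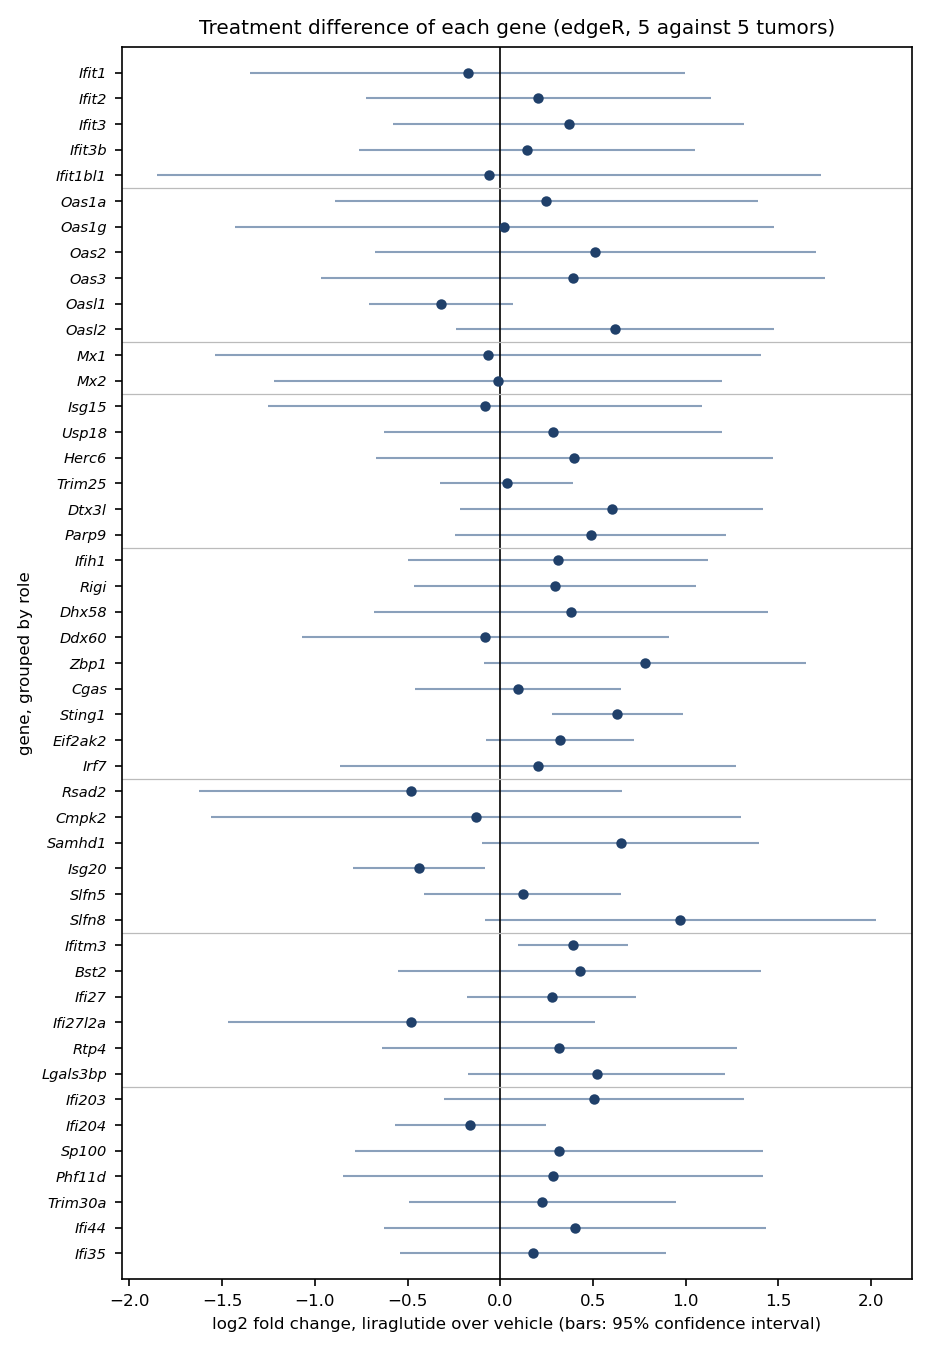
Log2 fold change of each of the 47 genes, liraglutide over vehicle, from edgeR on 5 against 5 tumors, with genes grouped by role on the vertical axis and bars for the 95% confidence interval. Points run from -0.48 to 0.97, 35 of 47 lie right of 0, and the bars of 44 cross 0.

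Among the nucleic acid sensors and their signaling partners, 8 of 9 members had a positive difference, with a median log2 fold change of 0.31. Sting1, the adaptor downstream of cGAS, had the smallest unadjusted p of all members. The gene (ENSMUSG00000024349.10) measured 26.2, 21.5, 20.7, 27.0 and 33.7 CPM in vehicle tumors 1 to 5 and 30.1, 39.3, 44.0, 40.2 and 46.6 CPM in liraglutide tumors 1 to 5. In 4 of the 5 liraglutide tumors the level was above the highest vehicle tumor, and the fifth, tumor 1, lay between vehicle tumors 4 and 5. The mean was 25.8 ± 5.22 CPM with vehicle and 40.0 ± 6.31 CPM with liraglutide (SD, n = 5 each). The difference was 0.63 on the log2 scale (95% CI 0.28 to 0.98), with an edgeR adjusted p of 0.482 and an exact permutation p of 0.0159 (two-sided, unadjusted, where 5 against 5 can give no less than 0.00794).

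Cgas, which makes the cyclic dinucleotide that activates STING, was among the lowest members and overlapped fully between groups. Its levels were 3.59, 1.72, 2.52, 2.01 and 3.18 CPM in vehicle tumors 1 to 5 and 1.99, 2.45, 2.96, 3.50 and 3.13 CPM in liraglutide tumors 1 to 5, a difference of 0.10 on the log2 scale (95% CI -0.46 to 0.65, edgeR adjusted p = 0.909) that turned to -0.02 without vehicle tumor 2. Of its exon length, 34.4% is shared with an antisense gene, and the strand setting of the counting is not given in the sources used here, so reads of the pair may be mixed. Zbp1, a sensor of Z-form nucleic acid, read 5.25, 5.07, 14.1, 18.5 and 23.6 CPM in vehicle tumors and 16.8, 19.3, 24.3, 24.8 and 28.9 CPM in liraglutide tumors. In Zbp1, 3 liraglutide tumors exceeded the highest vehicle tumor, while vehicle tumors 1 and 2 lay far below all others. The difference of 0.78 (95% CI -0.09 to 1.65) had an edgeR adjusted p of 0.558.

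Irf7 showed the pattern that most members shared. The gene (ENSMUSG00000025498.15) stood at 8.84, 16.3, 24.0, 46.6 and 69.8 CPM in vehicle tumors 1 to 5, a 7.89-fold span, and at 32.1, 19.9, 49.4, 33.7 and 55.5 CPM in liraglutide tumors 1 to 5, a 2.79-fold span. Every liraglutide tumor lay inside the vehicle range, above vehicle tumors 1 and 2 and below vehicle tumor 5. The means were 33.1 ± 24.9 and 38.1 ± 14.3 CPM (SD, n = 5 each). The log2 difference of 0.20 (95% CI -0.86 to 1.27, edgeR adjusted p = 0.901) was -0.04 without vehicle tumor 1 and 0.68 without vehicle tumor 5. The RNA helicases Ifih1 (MDA5), Rigi (RIG-I), Dhx58 (LGP2) and Ddx60 had log2 differences of 0.31, 0.30, 0.38 and -0.08, and Eif2ak2, the kinase PKR that halts translation on double-stranded RNA, one of 0.32, with edgeR adjusted p values between 0.584 and 0.964.

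The IFIT proteins bind foreign RNA ends and block its translation. In this family 3 of 5 members had a positive difference, with a median log2 fold change of 0.14 and edgeR adjusted p values between 0.779 and 0.986. Ifit1 measured 10.02, 15.1, 30.4, 73.9 and 93.8 CPM in vehicle tumors 1 to 5 and 32.5, 27.7, 33.1, 46.4 and 58.0 CPM in liraglutide tumors 1 to 5. The liraglutide tumors thus fell between vehicle tumors 2 and 4, and the log2 difference was -0.18 (95% CI -1.35 to 1.00, edgeR adjusted p = 0.923), which became 0.09 without vehicle tumor 4 and 0.30 without vehicle tumor 5. Ifit3, which stabilizes IFIT1 on RNA in human cells, measured 13.1, 21.6, 37.2, 83.4 and 75.8 CPM in vehicle tumors and 47.9, 48.3, 62.4, 65.6 and 74.1 CPM in liraglutide tumors. All 5 liraglutide values lay between vehicle tumors 3 and 5, with a log2 difference of 0.37 (95% CI -0.58 to 1.32, edgeR adjusted p = 0.779) that was 0.13 without vehicle tumor 1 and 0.70 without vehicle tumor 4. Ifit3 and Ifit3b are near-identical copies, so reads could have been split between them. Ifit1bl1 had the widest liraglutide span of any member, 7.21-fold, from 2.76 to 19.9 CPM.

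The OAS enzymes make the 2-5A signal that activates RNase L, and the related Oasl1 lacks that activity. In this family 5 of 6 members had a positive difference, with a median of 0.32. Oasl2 read 13.8, 18.1, 29.3, 48.2 and 70.8 CPM in vehicle tumors 1 to 5 and 51.1, 39.9, 60.8, 51.3 and 74.1 CPM in liraglutide tumors 1 to 5. Vehicle tumors 1, 2 and 3 were below every liraglutide tumor, but vehicle tumor 5 was above 4 of them, and the log2 difference of 0.62 (95% CI -0.24 to 1.48) had an edgeR adjusted p of 0.610. With 1 tumor left out that difference ran from 0.41 to 1.03. Oas3 spanned 16.4-fold among vehicle tumors, from 4.08 to 67.0 CPM, and Oas1g spanned 31.5-fold, from 0.276 to 8.72 CPM, the widest of the 47. Oas1g and Oas1a are close paralogs whose reads may be shared. Oasl1, a repressor of Irf7 translation, was the exception in the family, at 24.4 to 47.7 CPM with vehicle and 26.4 to 29.9 CPM with liraglutide (log2 difference -0.32, 95% CI -0.71 to 0.07, edgeR adjusted p = 0.577).

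The Mx proteins are GTPases that trap viral nucleocapsids. Mx1 measured 2.00, 2.03, 5.67, 14.4 and 27.7 CPM in vehicle tumors 1 to 5 and 4.41, 7.35, 9.10, 11.1 and 17.6 CPM in liraglutide tumors 1 to 5. Its vehicle values spanned 13.8-fold around the liraglutide values, and the log2 difference of -0.07 (95% CI -1.54 to 1.41, edgeR adjusted p = 0.981) was 0.73 without vehicle tumor 5 and also turned positive without vehicle tumor 4 or liraglutide tumor 1 or 2. Mx2 had a log2 difference of -0.01 (edgeR adjusted p = 0.996).

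ISG15 is a ubiquitin-like protein attached to other proteins, with Herc6 as a ligase in mice, Usp18 as the protease that removes it and also restrains IFNAR signaling, and Trim25 as a ligase that activates RIG-I. In this group 5 of 6 members had a positive difference, with a median of 0.34. Isg15 measured 1.24, 2.43, 4.30, 7.61 and 12.5 CPM in vehicle tumors 1 to 5 and 3.54, 2.78, 5.76, 7.09 and 7.37 CPM in liraglutide tumors 1 to 5. The groups overlapped fully, and the log2 difference of -0.08 (95% CI -1.25 to 1.09, edgeR adjusted p = 0.970) became 0.06 without vehicle tumor 4, 0.46 without vehicle tumor 5, and 0.03 and 0.09 without liraglutide tumors 1 and 2. An antisense gene shares 31.1% of its exon length. Usp18 read 2.76, 3.65, 5.25, 11.4 and 15.5 CPM in vehicle tumors and 8.47, 11.5, 8.34, 9.26 and 9.38 CPM in liraglutide tumors. The liraglutide tumors lay close together, within 1.38-fold, between vehicle tumors 3 and 5, and the log2 difference was 0.28 (95% CI -0.63 to 1.19, edgeR adjusted p = 0.828). It was 0.06 without vehicle tumor 1 and 0.71 without vehicle tumor 5. Dtx3l and Parp9, partners in a ubiquitin ligase complex encoded head to head, had log2 differences of 0.60 and 0.49 (edgeR adjusted p = 0.607 and 0.637).

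**Figure D2:**
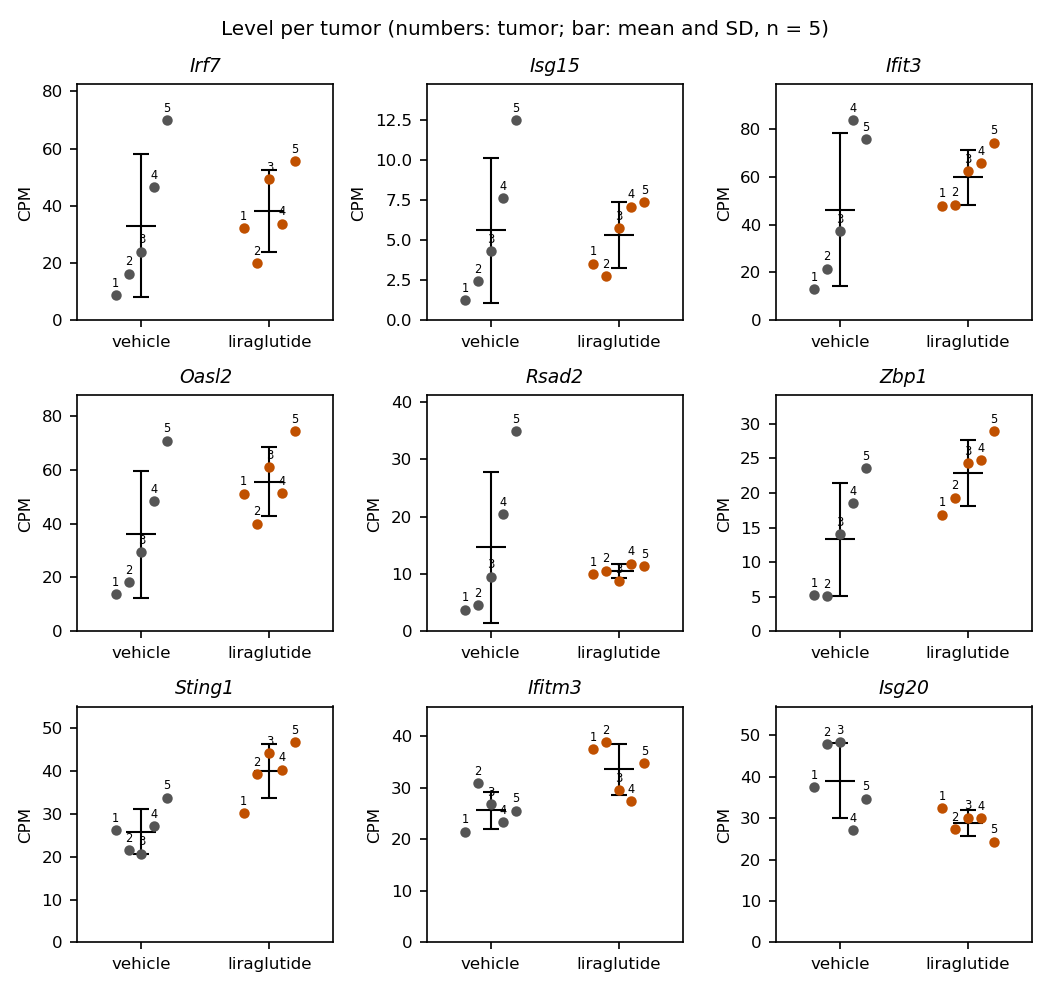
CPM of 9 members in each tumor, vehicle in gray and liraglutide in orange, with the tumor number beside each point and a bar for the mean and SD of 5 tumors. For Irf7, Isg15, Ifit3 and Rsad2 the liraglutide tumors sit inside the vehicle range, while for Sting1 4 of 5 liraglutide tumors sit above all vehicle tumors.

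The enzymes that act on nucleotides and RNA held both ends of the distribution, with 3 of 6 members positive and a median of -0.01. Slfn8, of the Schlafen family, had the highest log2 difference of the 47, 0.97 (95% CI -0.08 to 2.03, edgeR adjusted p = 0.545), at very low levels. It measured 0.622, 0.203, 0.630, 2.09 and 1.14 CPM in vehicle tumors 1 to 5, where 0.203 stands for 2 counts, and 0.950, 1.55, 1.97, 2.74 and 2.16 CPM in liraglutide tumors 1 to 5. Only 2 liraglutide tumors exceeded vehicle tumor 4, and an antisense gene shares 24.9% of the exon length of Slfn8. Its log2 difference ran from 0.73 to 1.497 with 1 tumor left out. Samhd1, which degrades the nucleotides needed for viral DNA synthesis, read 63.6, 66.6, 111, 170 and 237 CPM in vehicle tumors and 167, 154, 242, 219 and 235 CPM in liraglutide tumors. Vehicle tumors 1 to 3 were below every liraglutide tumor, vehicle tumors 4 and 5 were not, and the log2 difference of 0.65 (95% CI -0.10 to 1.39) had an edgeR adjusted p of 0.561. With 1 tumor left out that difference ran from 0.47 to 0.99.

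The lowest log2 differences were those of Rsad2, Ifi27l2a and Isg20. Rsad2 (viperin), which makes a chain-terminating nucleotide, stood at 3.80, 4.56, 9.55, 20.5 and 34.9 CPM in vehicle tumors 1 to 5 and at 9.93, 10.6, 8.79, 11.8 and 11.4 CPM in liraglutide tumors 1 to 5. The liraglutide tumors clustered near the middle of the vehicle range, and the log2 difference was -0.48 (95% CI -1.62 to 0.66, edgeR adjusted p = 0.759). It was 0.13 without vehicle tumor 5, and 0.0091 with limma-voom on all tumors. Isg20, an exonuclease that degrades single-stranded RNA, measured 37.4, 47.9, 48.3, 27.2 and 34.7 CPM with vehicle and 32.4, 27.3, 30.2, 29.9 and 24.3 CPM with liraglutide. Vehicle tumor 4 lay below 4 of the 5 liraglutide tumors, and the other vehicle tumors lay above all of them. The means of Isg20 were 39.1 ± 9.01 and 28.8 ± 3.09 CPM (SD, n = 5 each), with a log2 difference of -0.44 (95% CI -0.79 to -0.08, edgeR adjusted p = 0.485, exact permutation p = 0.0556).

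Among membrane and secreted products, 5 of 6 members had a positive difference, with a median of 0.35. Ifitm3, which stops virus fusion in endosomes, read 21.5, 30.9, 26.8, 23.3 and 25.6 CPM in vehicle tumors 1 to 5 and 37.5, 38.8, 29.6, 27.4 and 34.8 CPM in liraglutide tumors 1 to 5. In 3 liraglutide tumors it exceeded every vehicle tumor, while liraglutide tumors 3 and 4 lay below vehicle tumor 2. The means were 25.6 ± 3.60 and 33.6 ± 4.95 CPM (SD, n = 5 each), with a log2 difference of 0.39 (95% CI 0.09 to 0.69, edgeR adjusted p = 0.482, exact permutation p = 0.0317). An antisense gene shares 60.9% of the exon length of Ifitm3, so this value is less certain than most.

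Bst2 (tetherin), which holds budding virus at the cell surface, measured 5.73, 7.10, 17.5, 29.0 and 36.2 CPM in vehicle tumors 1 to 5 and 23.6, 18.3, 30.8, 24.8 and 31.2 CPM in liraglutide tumors 1 to 5. All liraglutide tumors lay between vehicle tumors 3 and 5, and the log2 difference was 0.43 (95% CI -0.55 to 1.41, edgeR adjusted p = 0.750). It was 0.19 without vehicle tumor 1 and 0.80 without vehicle tumor 5. Ifi27, a small membrane protein, read 18.2, 20.2, 24.0, 29.7 and 33.2 CPM with vehicle and 19.7, 26.9, 36.0, 35.2 and 33.9 CPM with liraglutide, a log2 difference of 0.28 (95% CI -0.18 to 0.73, edgeR adjusted p = 0.666). Ifi27 differed by 0.12 with Ptprc in the fit, and by 0.18 to 0.41 with 1 tumor left out. Its neighbor Ifi27l2a stood at 1.11, 2.64, 7.98, 2.18 and 2.20 CPM with vehicle and at 1.90, 2.04, 2.43, 2.08 and 2.90 CPM with liraglutide. A single vehicle tumor, number 3, was high, and the log2 difference of -0.48 (95% CI -1.47 to 0.51, edgeR adjusted p = 0.727) became 0.18 without it. The chemosensory receptor chaperone Rtp4 and the secreted glycoprotein Lgals3bp had log2 differences of 0.32 and 0.52.

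The remaining 7 members, a mixed group with several nuclear proteins, had 6 positive differences and a median of 0.29. The DNA-binding HIN-200 proteins split, with Ifi203 at 0.51 and Ifi204 at -0.16. Sp100, a component of PML bodies, was at 0.32, and Phf11d, Trim30a, Ifi44 and Ifi35 lay between 0.18 and 0.40. Their edgeR adjusted p values ran from 0.657 to 0.868. On the scale of mean CPM per kilobase of exon, which allows genes to be compared, Lgals3bp was the most abundant member at 59.2, followed by Trim25 at 33.6, Ifitm3 at 23.1 and Eif2ak2 at 19.9. The least abundant were Slfn8 at 0.341 and Cgas at 0.521, and Irf7 stood at 9.43.

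**Figure D3:**
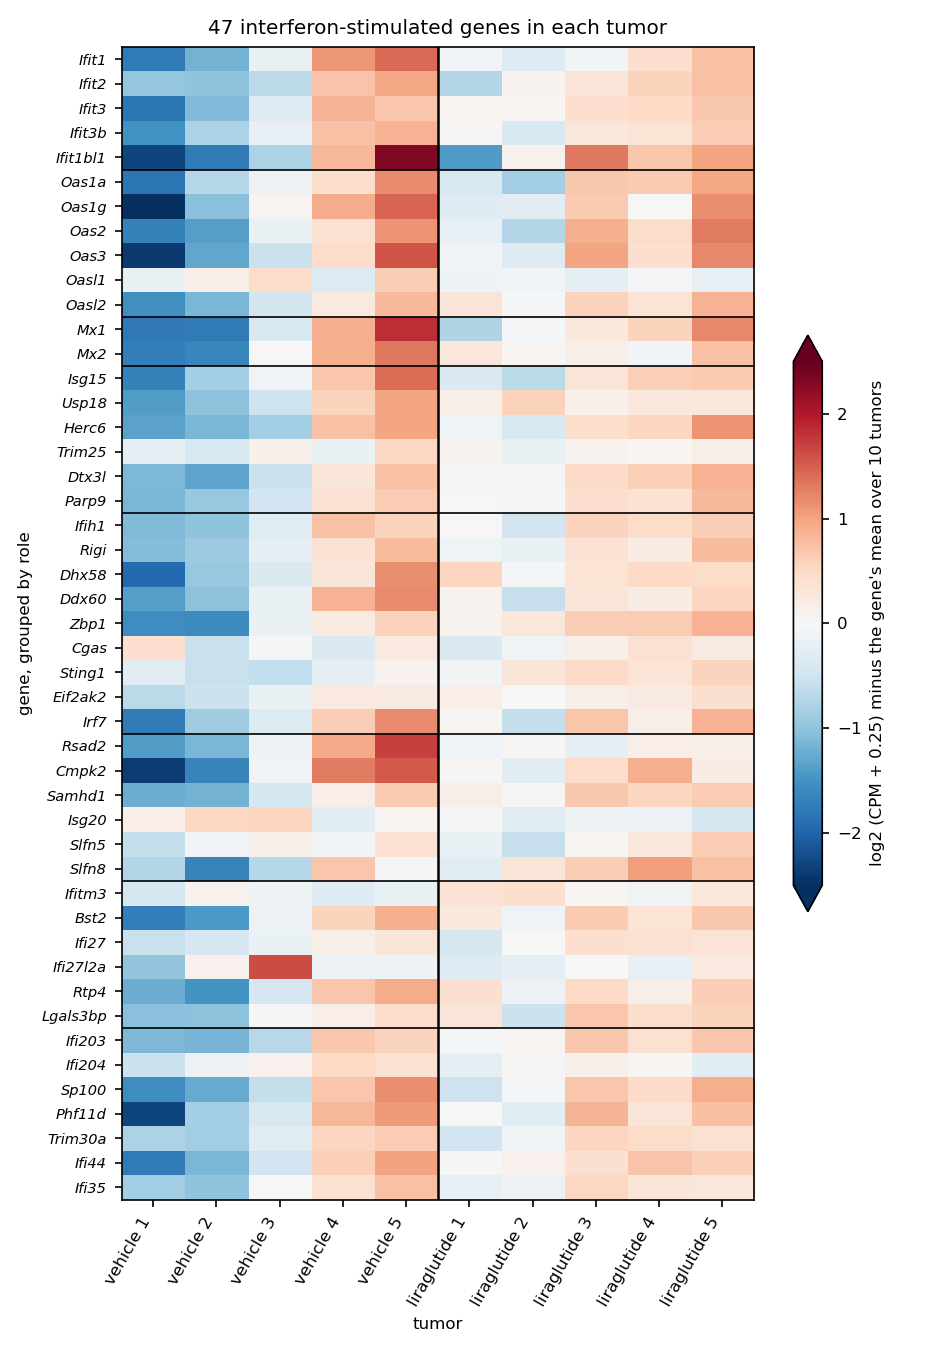
Each of the 47 genes (rows, grouped by role) in each of the 10 tumors (columns), as log2 of CPM plus 0.25 minus the mean of the gene over the 10 tumors. Vehicle tumors 1 and 2 are low and vehicle tumors 4 and 5 high in most rows, with Oasl1, Cgas, Isg20, Ifitm3 and Ifi27l2a as visible exceptions.

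The members varied widely among vehicle tumors. Averaged over the members, the log2 level relative to the mean of all tumors was -1.28, -0.95, -0.22, 0.46 and 0.85 in vehicle tumors 1 to 5 and -0.10, -0.14, 0.42, 0.36 and 0.60 in liraglutide tumors 1 to 5. The vehicle tumors thus held both the lowest and the highest averages. Vehicle tumor 1 was the lowest vehicle tumor in 34 members and vehicle tumor 5 the highest in 37. In 38 members vehicle tumors 1 and 2 were both below all 5 liraglutide tumors, and in 28 members vehicle tumor 5 was above all 5. The shares of all genes with these orders were not computed. The summed level of the 47 ran from 943 to 2939 CPM in vehicle tumors (median 1581) and from 1648 to 2704 CPM in liraglutide tumors (median 2316).

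The highest vehicle tumor exceeded the lowest by a median of 5.52-fold over the members, and by more than 5-fold in 26 of them. Among liraglutide tumors the median was 1.86-fold, and 1 member, Ifit1bl1, exceeded 5-fold. The SD of log2 CPM was larger among vehicle than among liraglutide tumors in 44 of 47 members (93.6%), where the same held for 70.7% of all genes tested, and the exceptions were Slfn5, Ifitm3 and Ifi27. Its median over the members was 1.02 with vehicle and 0.37 with liraglutide, against 0.35 and 0.27 over all genes. The SD was likewise larger with vehicle in 23 of 23 GTPases and targets of interferon-gamma, with medians of 1.48 and 0.54, and in 6 of 6 pan-leukocyte markers. Without any single tumor the count was between 44 and 46. These are descriptions over genes that vary together in the same 10 libraries, and the difference in spread was not tested.

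**Figure D4:**
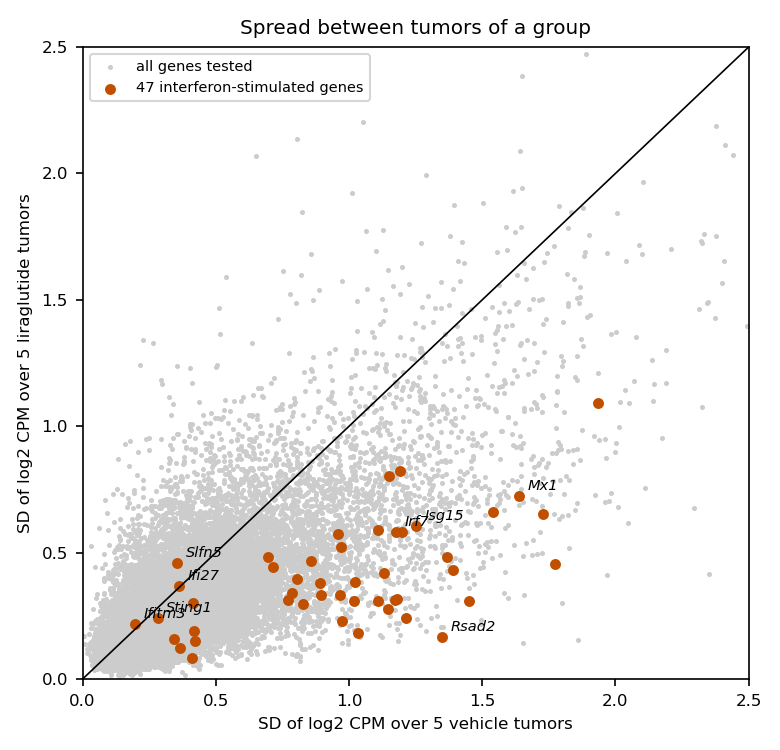
SD of log2 CPM over the 5 vehicle tumors (horizontal) and the 5 liraglutide tumors (vertical) for all genes tested (gray) and the 47 members (orange), with a line of equal spread and 19 genes beyond the axes. Of the members, 44 lie below the line, and their medians are 1.02 and 0.37.

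Most members followed Irf7 from tumor to tumor. The Pearson r of log2 CPM with Irf7 over the 10 tumors had a median of 0.91 over the other 46 members. It was over 0.8 in 36 of 46 (78.3%), against 9.10% of all genes tested. The same held for 20 of 23 GTPases and targets of interferon-gamma (87.0%) and 5 of 6 pan-leukocyte markers (83.3%). The members most like Irf7 were Oas3 (r = 0.98), Ifit3b (r = 0.98) and Phf11d (r = 0.98). The 10 members at or under 0.8 were Isg20 (-0.51), Cgas (0.09), Oasl1 (0.10), Ifitm3 (0.14), Ifi27l2a (0.22), Sting1 (0.53), Ifi204 (0.63), Slfn8 (0.63), Trim25 (0.74) and Slfn5 (0.76). The 3 members at an unadjusted p under 0.05, Sting1, Ifitm3 and Isg20, were among these 10, but members over 0.8 joined them in other fits. These were Zbp1 and Samhd1 with limma-voom or without a filter on low counts. Both joined with Oasl2, Dtx3l, Parp9 and others when Ptprc was in the fit or vehicle tumor 5 was left out. Leaving out vehicle tumor 4 added Eif2ak2 and Ifi203, and leaving out liraglutide tumor 2 added Lgals3bp. Many members over 0.8 also joined in a fit that blocked on tumor number, among them Zbp1, Samhd1, Oasl2, Oas2 and Rigi. The median log2 difference was 0.30 in the 36 members over 0.8 and 0.07 in the 10 others. These correlations are across 10 tumors of both groups, share the same libraries and scaling, and are given without a test.

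**Figure D5:**
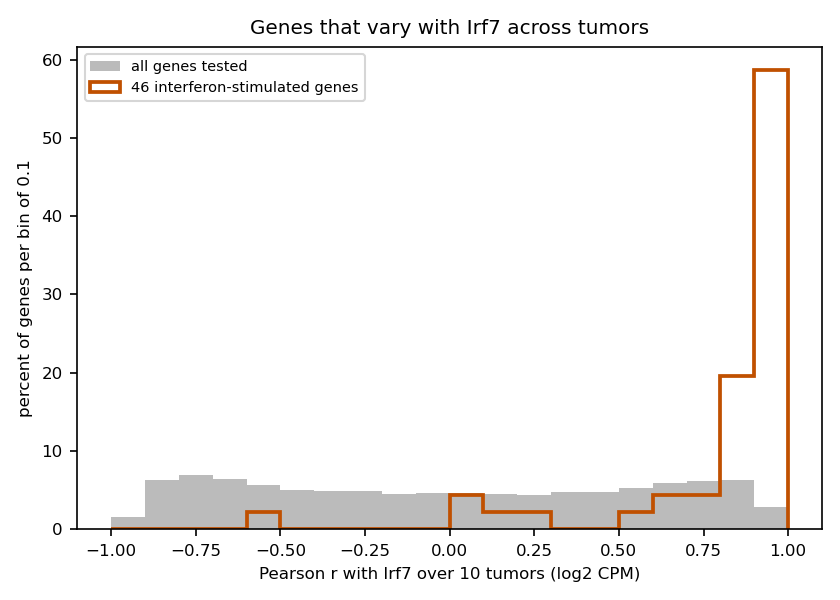
Distribution of the Pearson r with Irf7 over 10 tumors, as the percent of genes in bins of 0.1, for all genes tested (gray) and the 46 other members (orange line). The members pile up above 0.8, where 78.3% of them and 9.10% of all genes lie.

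Members with and without the ISRE core in the promoter were set side by side for this pattern. Of the 18 members with an ISRE core, 15 had an r over 0.8 to Irf7 with a median of 0.93, and of the 15 others besides Irf7, 11 had an r over 0.8 with a median of 0.91. The median log2 difference between treatments was 0.24 with the core and 0.25 without it. A match describes the letters in this window, and no binding was measured.

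Most type I and type III interferon genes were at or near the limit of detection. Of 20 such genes, 12 had no count in any tumor, which allows up to 0.207 to 0.315 CPM per tumor, and 1, Ifnk, passed the filter. Ifnb1 had 2 counts in each of liraglutide tumors 2 and 3 and none elsewhere, and Ifne reached 10 counts, or 0.816 CPM, in liraglutide tumor 2. Ifnk, an interferon of keratinocytes, measured 0.967, 0.507, 0.735, 2.43 and 0.977 CPM in vehicle tumors 1 to 5 and 0.864, 0.898, 2.20, 1.42 and 1.56 CPM in liraglutide tumors 1 to 5, overlapping throughout (log2 difference 0.29, edgeR adjusted p = 0.823).

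Among receptors and JAK-STAT genes, Stat2 and Irf9 followed Irf7 and the receptor chain Ifnar1 did not. Ifnar1 lay between 79.9 and 102 CPM in the 10 tumors, with the 2 lowest values in vehicle tumors 4 and 5 and an r to Irf7 of -0.54. Stat2 and Irf9, which bind the ISRE together, had r of 0.96 and 0.96 to Irf7 and log2 differences of 0.34 and 0.45. In this list 10 of 12 genes had a positive difference with a median of 0.26, and 0 were called. Ifnar2 (0.32) and Tyk2 (0.21) had an unadjusted p under 0.05 (edgeR adjusted p = 0.515 for each). Of all genes tested, 3.97% were higher with liraglutide at that p.

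Other lists of the pathway also had mostly positive differences. Of 7 negative regulators of JAK-STAT signaling, 6 were positive, with Socs1 at 0.57. Of 25 genes of interferon induction, 18 were positive with a median of 0.06. Of 40 other interferon-stimulated genes tested from a list of 43, 30 were positive with a median of 0.27. Helz2, Mov10, Pml and Shisa5 had an unadjusted p under 0.05, at log2 differences of 0.54, 0.38, 0.27 and 0.38. At that p, 3.97% of all genes tested were higher with liraglutide. Of 23 GTPases and targets of interferon-gamma tested from a list of 24, 23 were positive with a median of 0.73, for example Gbp2 at 0.80 and Gbp4 at 0.96, both guanylate-binding proteins. None of these genes was called by edgeR, where 0% of all genes were.

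The leukocyte gene Ptprc was low in the 5 tumors whose average over the members was below 0. Ptprc (CD45), carried by all leukocytes, read 35.6, 31.7, 40.9, 77.0 and 70.5 CPM in vehicle tumors 1 to 5 and 37.2, 42.4, 70.5, 74.8 and 71.0 CPM in liraglutide tumors 1 to 5. Over the 10 tumors Irf7 and Ptprc had a Pearson r of 0.82 (permutation p = 0.00404, 0.0162 after adjustment over 4 relations) and a Spearman rho of 0.75 (permutation p = 0.0173, adjusted 0.0402). Without the 2 tumors farthest from the median of Ptprc r was 0.76, and after group means were subtracted it was 0.81. For the macrophage receptor Csf1r r was 0.64 and rho 0.73 (adjusted permutation p = 0.0964 and 0.0402), and r was 0.60 without the 2 farthest tumors. The macrophage and monocyte markers differed in sign, with a median r of 0.80 over the 9 tested and 5 of them over 0.8. Mrc1, the mannose receptor of macrophages, had an r of -0.88 to Irf7 and measured 673, 724, 761, 312 and 217 CPM in vehicle tumors 1 to 5 and 340, 457, 284, 339 and 190 CPM in liraglutide tumors 1 to 5 (log2 difference -0.74, edgeR adjusted p = 0.529). For Epcam r was -0.58 and rho -0.68 (adjusted permutation p = 0.103 and 0.0451), and r was -0.73 without the 2 farthest. Epcam was low, at 0.163 to 4.63 CPM, and the epithelial markers differed in sign. Over the 10 lung adenocarcinoma and epithelial markers the median r to Irf7 was 0.56, with Cdh1 at 0.94, Nkx2-1 at 0.80 and Hmga2 at -0.83.

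Plasmacytoid dendritic cells are known as strong producers of type I interferon, and their marker Siglech was at 0 to 8 counts per tumor, with no count in liraglutide tumors 2 and 5. Its r to Irf7 was 0.28 and rho 0.26 (adjusted permutation p = 0.435 and 0.469). Of the 7 markers of these cells 2 passed the filter, with opposite signs of r to Irf7, 0.58 for the chemokine receptor Ccr9 and -0.80 for the transcription factor Tcf4, and log2 differences of -0.07 and 0.07. The 6 pan-leukocyte markers were all tested, 4 with a positive difference and a median of 0.21, and summed to 159 to 320 CPM with vehicle and 206 to 294 CPM with liraglutide. Of 10 T and NK cell markers 8 were tested, 8 were positive with a median of 0.73, and the list summed to 6.39 to 35.8 CPM with vehicle and 13.6 to 38.7 CPM with liraglutide. Of 4 B cell markers 0 passed the filter, with sums from 0.472 to 1.84 CPM in the 10 tumors. The 5 keratinocyte markers summed to 90.8 to 327 CPM with vehicle and 290 to 554 CPM with liraglutide, mostly from Dsp, a desmosome gene of epithelia in general. The keratin Krt14 ran from 2.00 to 11.6 CPM with vehicle and from 3.71 to 93.9 CPM with liraglutide, and Krt5 and Krt1 were at 0 in several tumors. The list had a median difference of 2.36, with 3 of 5 higher at an unadjusted p under 0.05, where 3.97% of all genes were. The median r of the list to Irf7 was 0.06. The part of any of these cell types in the levels of the members was not tested.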

How the data were processed

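RNA of 10 tumors, 5 per group, was ribosomal RNA depleted and sequenced as read pairs with a strand-marking kit. The authors mapped the reads with Bowtie 1.0.1 and TopHat 2.0.13 and deposited raw counts per Ensembl gene, whole numbers without normalization. Builds named in the sources differ (GRCm39 in the methods, mm10 and GRCh38 in the submitters' processing notes, which also name FastQC), and the annotation release and strand setting are not given in the sources used here. Groups and tumor numbers came from sample titles. Symbols and exon lengths were taken from GENCODE M39 by unversioned identifier, with 51731 of 55401 matched.

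Genes were filtered with filterByExpr (17464 kept) and fitted with edgeR 4.0.16 (R 4.3.3), using TMM scaling and the quasi-likelihood F test with Benjamini-Hochberg adjustment over all genes tested. Called genes had an adjusted p below 0.05 and differed by more than 0.58 on the log2 scale in either direction. Single members were compared by two-sided exact permutation over all 252 splits of log2 CPM (prior count 2), and correlations by 100000 permutations. DESeq2 1.42.0 with and without independent filtering (the latter added after seeing the data), limma-voom 3.58.1, other scalings and filters, the tumor number as a block, Ptprc as a covariate, and omission of each tumor were alternatives. The overlap counts, spread counts and correlations with Irf7 were also repeated under other scalings and omissions, which were added after seeing the data. Members with values in every tumor were 14 set by name plus the 3 highest and 3 lowest log2 fold changes. The members and lists were chosen with earlier results of these data known. Intervals and detection limits cover counting error or the spread between these tumors only. Total counts per tumor bounded the levels that could be seen, and the spread between tumors set the precision of the members. Promoter windows came from RefSeq (GRCm38.p6).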

Additional observations from a re-analysis of the deposited data

Results flagged for a closer look

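In the vehicle group, Ifi27l2a was 7.98 CPM in tumor 3, far from the next vehicle tumor at 2.64 CPM. The gap between them was 0.777 of the whole range of the group, above the critical value of 0.71 for 5 samples (Dixon's 95% limit). Of 112 groups tested in this way, 1 exceeded the limit, where chance alone is expected to give about 1 in 20. Ifi27l2a shares 15.02% of its exon length with Ifi27 on the opposite strand, and Ifi27 was not high in that tumor, at 24.0 CPM among vehicle values from 18.2 to 33.2.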

How the results depend on the processing

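The number of members called was 0 under every alternative and with each tumor left out, but DESeq2 with independent filtering gave an adjusted p for only 11 of the 47 and says nothing of the others. The number of genes called was 0 except with DESeq2, which gave 25, or 21 without independent filtering (added after seeing the data). The count of members at an unadjusted p under 0.05, 3 as reported (6.38%, with 9.59% of all genes), was 6 with limma-voom (12.8%, with 9.95%), 5 without a filter on low counts (10.6%, with 6.92%) and 10 with Ptprc in the fit (21.3%, with 11.2%). With 1 tumor left out it ran from 2 (4.26%, with 5.198% of all genes without liraglutide tumor 5) to 11 (23.4%, with 13.5% without vehicle tumor 5). With the tumor number as a block (a replicate block), 0 genes and 0 members were called and the count was 16 (34.0%, with 14.8% of all genes). Same-numbered tumors correlated after removal of group means at 0.354, 0.565, -0.075, 0.068 and 0.389 for numbers 1 to 5. Correlations of differently numbered tumors were not computed, so these values do not decide whether the numbers pair the tumors. The sample titles do not say what a number stands for, and the main fit did not use it. The mean relative log2 level of the members was -1.28 and 0.85 in vehicle tumors 1 and 5, and -0.10 and 0.60 in liraglutide tumors 1 and 5. Among the 18 members given in every tumor, log2 fold changes of Ifit1, Mx1 and Isg15 turned sign with limma-voom (0.27, 0.53 and 0.27). They also did so with the block (0.23, 0.42 and 0.18), as did Rsad2 with limma-voom (0.0091). Members outside these 18 turned as well. As reported 35 of the 47 members were positive, against 43 with limma-voom, 42 with the block and 32 with Ptprc in the fit. Of the 18, those that turned with 1 tumor left out ranged from -0.43 to 0.30 for Ifit1, -0.37 to 0.73 for Mx1, -0.35 to 0.46 for Isg15, -0.73 to 0.13 for Rsad2, -0.042 to 0.68 for Irf7, -0.018 to 0.24 for Cgas and -0.71 to 0.18 for Ifi27l2a. Without a change of sign, 1 omitted vehicle tumor moved Ifit3 to between 0.13 and 0.70, Usp18 to between 0.06 and 0.71, Bst2 to between 0.19 and 0.80, Oasl2 to 0.41 or 1.03, Samhd1 to 0.99, Slfn8 to 1.497 and Ifi27 to 0.18. Members without overlap between groups numbered from 0 to 1 in the same omissions. The cause of these shifts was not tested. The count of positive members ran from 32 to 43 over the alternatives and from 30 to 43 over the omissions (45 members were tested where 10 counts were required in every tumor), and their median log2 fold change from 0.16 to 0.53 and from 0.09 to 0.63. The Pearson r of Irf7 with Ptprc stayed between 0.80 and 0.88. With 5 tumors per group and a vehicle SD of log2 CPM near 1, small differences could not be resolved. The lowest members, such as Slfn8, rest on few counts.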
